A study of Mus musculus with 28 samples.

Results

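The genes described here are 45 mouse genes of DNA replication and of the nucleotide supply that feeds it. They were chosen by name, out of the 50600 genes listed in a bulk RNA-seq table of mouse embryonic fibroblasts (MEFs) on the way to induced pluripotent stem cells. All 45 were in the table, all 45 were abundant enough to be tested, and none was at 0 in any library. They comprise 12 genes of the replicative helicase and its cofactors (Mcm2 to Mcm7, Mcm10, Cdc45 and Gins1 to Gins4), 5 of origin licensing (Orc1, Orc6, Cdc6, Cdt1 and Gmnn), 5 of the sliding clamp and its loader (Pcna and Rfc2 to Rfc5), 8 of the polymerases and primase (Pola1, Pola2, Prim1, Prim2, Pold1, Pold2, Pole and Pole2), 5 of nucleotide supply (Rrm1, Rrm2, Tyms, Tk1 and Dut), 4 of the lagging strand and single-strand binding (Fen1, Lig1, Rpa1 and Rpa2), 2 of chromatin assembly (Chaf1a and Chaf1b), 3 of fork protection (Tipin, Timeless and Clspn) and the transcription factor E2f1.

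The study followed 28 libraries in 14 groups of 2. All MEFs came from E13.5 embryos of OG2 males, which carry an Oct4-GFP reporter, and 129 females, and the labels give their genotype as WT. MEFs were either without inhibitor (called untreated here) or given p38i, the p38 kinase inhibitor SB203580. Cells infected with pMXs retroviruses for Oct4, Klf4 and Sox2 (OKS) were then taken on days 1, 3, 5 and 7 of induction in iCD1 medium, with DMSO (a control the labels call ctr), with p38i during induction, or with p38i given before induction only (pre-p38i). The labels carry the same note for all 28 libraries, which places MEFs in iCD1, whereas the methods change to iCD1 only after infection, so the medium of the 2 MEF groups is uncertain. The induced cells are mixed populations in which only some cells reach pluripotency, and fewer cells of a type and less RNA per cell cannot be told apart in such bulk samples. Nothing states that the 2 libraries of a group came from separate cultures, so the p-values below measure only the spread between libraries, which may be technical.

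Before a cell copies its DNA, the origin recognition complex (Orc1, Orc6), Cdc6 and Cdt1 load the ring of Mcm2 to Mcm7 onto origins in G1, and geminin (Gmnn) blocks Cdt1 once S phase has begun. Cdc45 and the GINS complex then join the ring to form the active helicase, and primase and polymerases alpha, delta and epsilon copy the strands behind it. The PCNA clamp, loaded by the Rfc proteins, holds polymerases delta and epsilon on the template. Many of these genes are transcribed in late G1 under E2F factors, so that their RNA is higher in dividing than in resting cells, and MEF reprogramming is known to proceed with cell division.

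E2F sites are short, and promoter sequences from RefSeq (GRCm38.p6, 250 bases before to 50 after each start) were searched for the E2F-type octamers TTTCCCGC, TTTCGCGC, TTTGCCGC and TTTGGCGC on both strands, with overlapping matches allowed. Of the 45 genes, 36 had an entry, with 41 promoters. An octamer was present in 14 of the 41 promoters (34.1%), against 744 of all 32841 promoters of the same length (2.27%). CCAAT, another element of promoters of dividing cells, was in 53.7% of the 41 promoters and in 37.4% of all. Genes with an octamer were Mcm3, Mcm5, Mcm6, Mcm7, Gins3, Orc1, Cdc6, Cdt1, Rfc3, Pola1, Pold1, Pole2, Lig1 and Clspn, and in 8 of these 14 it lay before the start. The entry of E2f1 held none, which says only that these letters are not in that window. Shown here 5′ to 3′ on the strand of the gene, with the octamers in capitals, are the 4 stretches before a RefSeq start that held an octamer outside every exon of GENCODE M21. They are chr8:75109334-75109508 (plus strand), upstream of Mcm5, chr1:128359706-128359880 (minus strand), upstream of Mcm6, chr11:98907982-98908150 (plus strand), inside an intron of the longer Cdc6 transcripts, and chrX:93632156-93632330 (minus strand), upstream of Pola1.
Mcm5: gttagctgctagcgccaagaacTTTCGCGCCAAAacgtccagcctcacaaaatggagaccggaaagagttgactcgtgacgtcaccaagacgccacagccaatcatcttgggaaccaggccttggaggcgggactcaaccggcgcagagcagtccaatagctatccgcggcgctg
Mcm6: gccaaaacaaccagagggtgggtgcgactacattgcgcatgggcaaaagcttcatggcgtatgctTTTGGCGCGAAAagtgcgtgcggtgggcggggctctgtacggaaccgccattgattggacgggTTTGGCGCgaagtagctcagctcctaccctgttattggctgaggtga
Cdc6: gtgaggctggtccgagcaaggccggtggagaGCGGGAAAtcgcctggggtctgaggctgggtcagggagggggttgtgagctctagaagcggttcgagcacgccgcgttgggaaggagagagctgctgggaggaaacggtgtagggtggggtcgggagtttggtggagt
Pola1: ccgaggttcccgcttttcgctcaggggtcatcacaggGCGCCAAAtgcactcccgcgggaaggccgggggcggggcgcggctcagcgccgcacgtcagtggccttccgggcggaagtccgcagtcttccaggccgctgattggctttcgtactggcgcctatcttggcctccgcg
In Mcm5 and Mcm6 the run of 12 capitals holds TTTCGCGC and TTTGGCGC on opposite strands with 4 bases shared, so that a pair of matches stands at the same place. A match is a description and not evidence of binding.

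Values are whole numbers that the authors deposited and that read as TPM (a unit of transcript abundance), per length and so comparable between genes. Summed over the 45 genes, untreated MEFs stood at 2393 and 2462. DMSO cells began at 2487 and 2452 (day 1), dropped to 1655 and 1758 (day 3), and came back through 2072 and 2041 (day 5) to 2837 and 2762 (day 7). With p38i the sum was 2349 and 2340, then 1479 and 1461, 1495 and 1476, and finally 1652 and 1619. In pre-p38i it was 2640 and 2665, then 2376 and 2395, 3325 and 3253, and finally 3735 and 3768. Thus all 3 courses dipped on day 3, the DMSO sum was back above MEFs on day 7, the p38i sum stayed low, and the pre-p38i sum had the smallest dip and the highest end. In the order of the 14 sums, only 3 pairs of neighbours overlapped: DMSO day 1 with MEFs, MEFs with pre-p38i day 3, and p38i day 5 with p38i day 3.

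**Figure D1:**
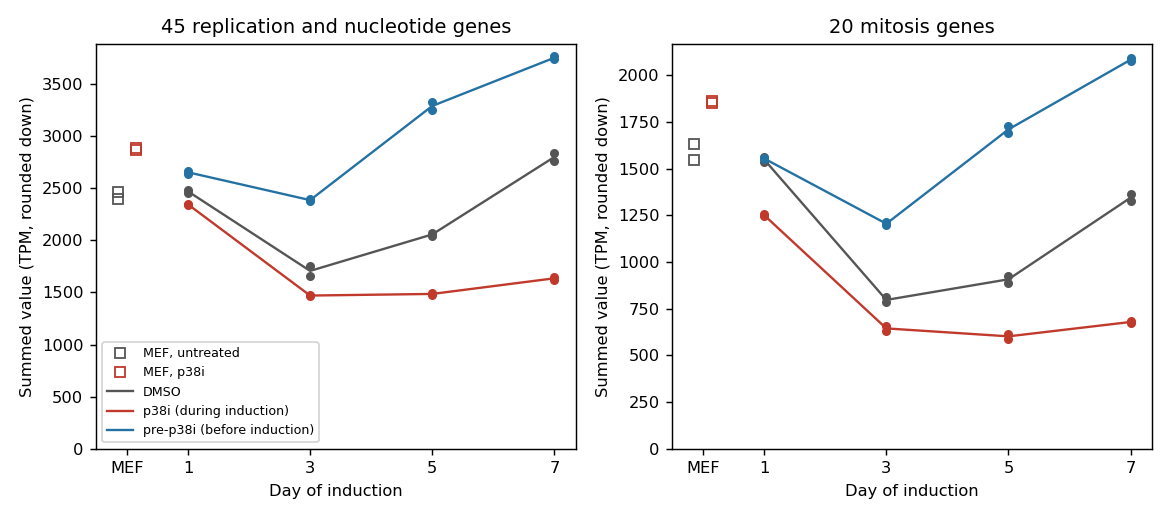
Summed value (TPM-like units) in each library against day of induction, for the 45 replication and nucleotide supply genes on the left and 20 mitosis genes on the right. Points are libraries, lines join the means of the 2 libraries of DMSO, p38i and pre-p38i, and squares are MEFs with and without p38i; on day 7 the sum of the 45 genes was 1652 and 1619 with p38i, 2837 and 2762 in DMSO and 3735 and 3768 in pre-p38i.

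The highest single values belonged to Pcna (up to 336), Rrm2 (up to 284) and Dut (up to 250), the lowest to Orc1, which was listed at 1 in a p38i library of day 3 and reached 16 in pre-p38i on day 7. Its range over the 14 group means was the widest of the 45, at 6.07-fold on the value + 1 scale used for all fold changes here. Pre-p38i on day 7 held the highest group mean of 33 of the 45 genes, and p38i-treated MEFs that of 6. The lowest mean was that of p38i day 3 for 20 genes, p38i day 5 for 16 and p38i day 7 for 4. Measured against its own mean over the 14 groups, the median gene stood at -0.45 (log2) on day 3 and 0.32 on day 7 in DMSO, at -0.62 and -0.50 with p38i, and at 0.05 and 0.70 in pre-p38i. The order of the groups was shared by nearly all members: 42 genes had a Pearson correlation of 0.797 (Gins4) to 0.987 (Mcm3) with the median of the others over the 14 group means. Gins2 (0.703), Dut (0.603) and E2f1 (0.18) were lower. These points share libraries and a common scale, and the correlations are descriptions only.

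**Figure D2:**
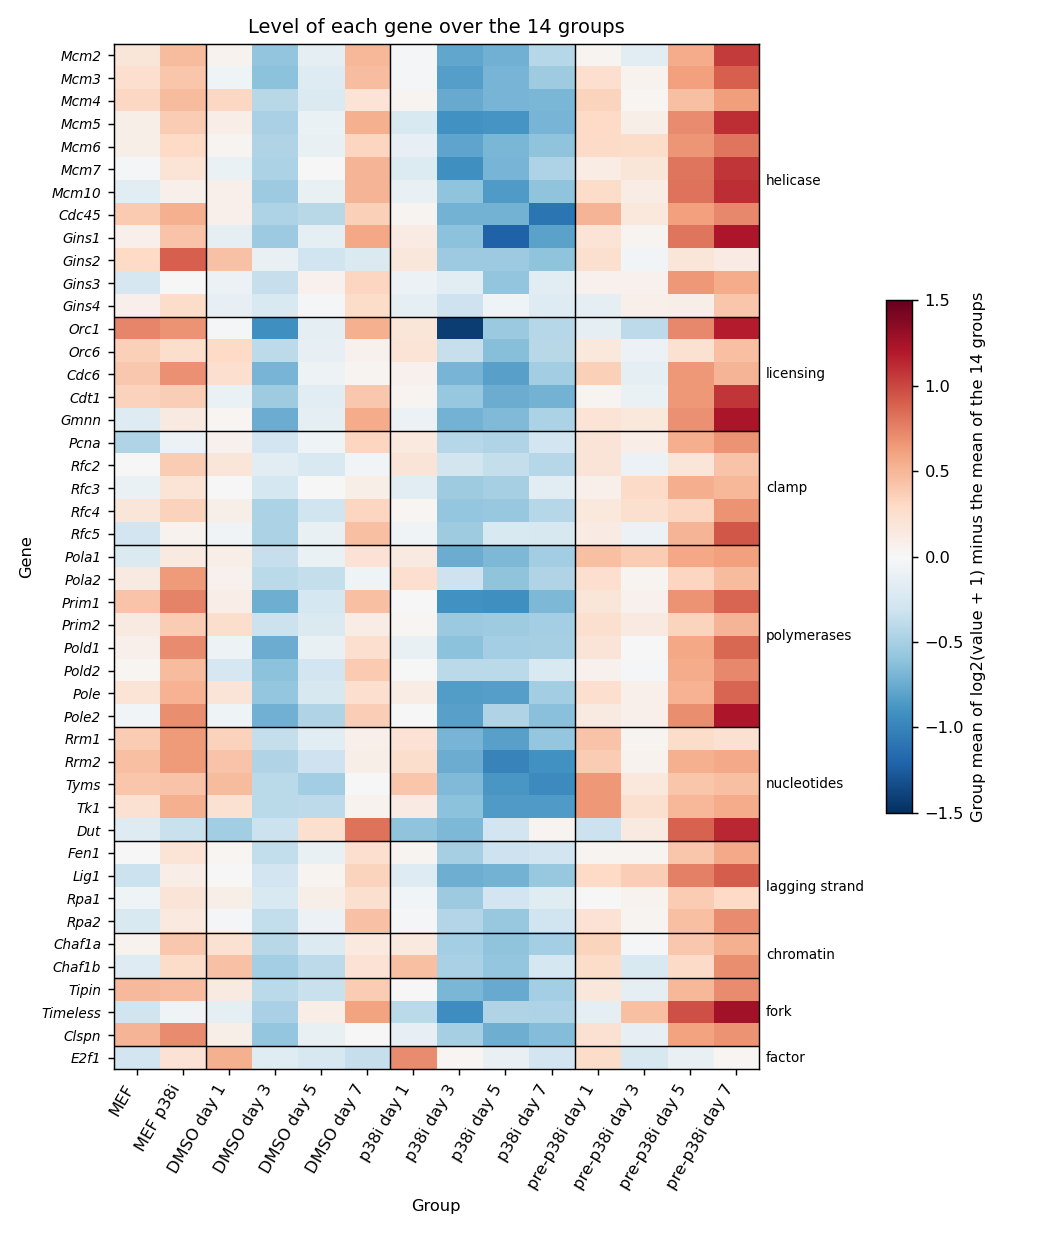
Group mean of log2(value + 1) minus the mean of the same gene over the 14 groups, for 45 genes in rows ordered by role and 14 groups in columns, on a color scale from -1.5 to 1.5. The pre-p38i columns of days 5 and 7 are high and the p38i columns of days 3 to 7 low in nearly every row, with E2f1 as the row that departs most.

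The course in DMSO was taken first, as the control for the rest. Differences were tested with limma on log2(value + 1) in a model of all 28 libraries, with Benjamini-Hochberg adjustment over the 13230 genes tested, and a gene was called at an adjusted p below 0.05. On day 1 of induction, 5 of the 45 genes were higher and 7 lower than in untreated MEFs, against 36.6% and 18.9% of all genes tested, and the median change was -0.01 (log2) against 0.14 for all genes. E2f1 went from 25 and 25 in MEFs to 48 and 42 on day 1, and rose by 0.82 ± 0.09 (log2 ± SE, adjusted p = 2.48e-07). Pcna, the clamp, went from 148 and 158 to 211 and 229 (0.52 ± 0.06, adjusted p = 7.37e-07), and Chaf1b, a subunit of the CAF-1 histone chaperone, from 26 and 31 to 43 and 46 (0.63, adjusted p = 1.94e-06). These 3 genes rose without overlap, as did Lig1 and Rpa1 (0.32 and 0.15). The licensing genes Orc1 and Cdt1 fell: Orc1 from 11 and 9 to 5 and 6 (-0.76 ± 0.25, adjusted p = 0.0129) and Cdt1 from 31 and 35 to 26 and 22 (-0.45, adjusted p = 0.00686). Clspn, the adaptor of checkpoint kinase Chk1, Tipin and Dut were lower too (-0.42, -0.35 and -0.33), as were Mcm3 and Pold2. Mcm5, Gmnn, Rrm2 and Tyms did not pass (0.01, 0.22, -0.02 and 0.06, the lowest adjusted p being 0.128, for Gmnn). Under quantile normalization, which forces the same distribution on every library and moved the median change of all genes by -0.211 to 0.207 over the comparisons, the split of this comparison was 4 higher and 13 lower. The lower genes numbered 4 without untreated MEF replicate 2 and 3 without DMSO day 1 replicate 2.

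From day 1 to day 3 in DMSO, 39 of the 45 genes fell and 1 rose, against 24% and 20.5% of all genes, with a median of -0.55 against -0.01. Rrm2, the small subunit of ribonucleotide reductase, went from 247 and 238 to 132 and 131, a fall of 0.88 ± 0.05 (log2, adjusted p = 3.6e-11). Tyms, which makes thymidylate, went from 96 and 87 to 45 and 54 (-0.88 ± 0.12, adjusted p = 4.91e-06). Chaf1b (43 and 46 to 22 and 23) and Cdc6 (12 and 11 to 5 and 6) each fell by 0.95, and Orc1 (5 and 6 to 2 and 3) fell by 0.90. In each of these 5 genes both libraries of day 3 lay below both of day 1. E2f1 fell by 0.71 (adjusted p = 3.11e-06), Gmnn by 0.77, Clspn by 0.67, Mcm5 by 0.58, Cdt1 by 0.43 and Pcna by 0.35. All 5 licensing genes, all 8 polymerase and primase genes, all 4 lagging-strand genes and both chromatin assembly genes fell, with 9 of 12 helicase genes. The exception was Dut, the dUTPase that keeps uracil out of DNA, which rose from 75 and 79 to 87 and 90 (0.20 ± 0.07, adjusted p = 0.0243), a call lost without DMSO day 1 replicate 1 or either library of DMSO day 3. Gins1, Gins3, Gins4, Rfc3 and Timeless did not pass.

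From day 3 to day 5, 20 genes rose and none fell, against 13.8% and 5.57% of all genes, and the median was 0.28 against 0.08. Gmnn went from 26 and 34 to 47 and 45 (0.61, adjusted p = 0.00119), Pold1, the catalytic subunit of polymerase delta, from 9 and 11 to 15 and 17 (0.63, adjusted p = 0.00227), and Mcm5 from 50 and 51 to 70 and 63 (0.39, adjusted p = 0.0052). Both libraries of day 5 lay above both of day 3 in these 3 genes. Orc1 (0.77), Cdc6 (0.63), Timeless (0.59), Clspn (0.47) and Pcna (0.22) rose too, while Cdt1 (0.37, adjusted p = 0.0511), Rrm2 (0.13), Tyms (-0.11) and E2f1 (-0.05) did not pass. The count was 12 without DMSO day 3 replicate 1, DMSO day 5 replicate 1 or DMSO day 5 replicate 2, and 0 in a fit of these 4 libraries alone.

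From day 5 to day 7, 35 genes rose and none fell, against 10.3% and 16.4% of all genes, with a median of 0.45 against -0.05. Pole2, a subunit of polymerase epsilon, went from 8 and 8 to 17 and 13 (0.82, adjusted p = 0.000499), Cdc45 from 12 and 13 to 22 and 22 (0.77, adjusted p = 0.000699) and Gins1 from 12 and 15 to 24 and 22 (0.73, adjusted p = 0.00878). None of these overlapped between the days. Prim1, the primase that lays down primers, rose by 0.72, Tipin by 0.71, Gmnn by 0.69, Mcm5 by 0.63, Cdt1 by 0.56, Tyms by 0.52, Rrm2 by 0.40 and Pcna by 0.39. All 5 nucleotide supply genes rose, with 10 of 12 helicase genes. E2f1 (-0.11, adjusted p = 0.411) and Clspn (0.11, adjusted p = 0.665) did not pass, and neither did Gins2, Gins3, Orc6, Cdc6, Rfc2, Rfc3, Pola1 and Pola2. In the same cells 20 of 20 mitosis genes fell from day 1 to day 3 and 19 of 20 rose from day 5 to day 7.

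The 2 MEF groups, which the labels put outside OKS induction, differed with the inhibitor. Of the 45 genes, 18 were higher and none lower in p38i-treated than in untreated MEFs, against 9.73% and 8.15% of all genes, and the median was 0.28 against 0.00. Pole2 was 11 and 11 in untreated and 18 and 20 in treated MEFs (0.74 ± 0.15, adjusted p = 0.00183). Pold1 went from 17 and 20 to 28 and 30 (0.63 ± 0.13, adjusted p = 0.0024), and Pola2, the regulatory subunit of polymerase alpha, from 20 and 23 to 33 and 29 (0.51 ± 0.12, adjusted p = 0.00423). All 3 polymerase genes were higher without overlap, and 4 of the 8 genes of that role passed. E2f1 went from 25 and 25 to 35 and 37 (0.51 ± 0.09, adjusted p = 0.000597), Chaf1b from 26 and 31 to 40 and 39 (0.46), Pcna from 148 and 158 to 193 and 203 (0.37, adjusted p = 0.000347), Mcm5 from 74 and 77 to 94 and 92 (0.30, adjusted p = 0.0293) and Rrm2 from 246 and 247 to 284 and 276 (0.18, adjusted p = 0.0158). The call of Mcm5 was lost whichever of the 4 libraries was left out, and those of Rrm2 and Pola2 without some of them. Of the 5 licensing genes none passed, with Cdt1 at 0.02, Gmnn at 0.32 (adjusted p = 0.0682) and Tyms (0.02) and Clspn (0.20) also uncalled. Summed, the 45 genes were 1.18 times as high as in untreated MEFs. Fibroblast markers moved with this comparison: 7 of 12 were lower in p38i-treated MEFs and none higher, with Col1a1, a collagen chain, at 2200 and 2221 against 4164 and 3867 (-0.86, adjusted p = 4.22e-07), and 8 of the macrophage markers were lower and none higher; their part in the result was not tested. Leaving out p38i-treated MEF replicate 1 left 11 genes called, and a fit of these 4 libraries alone 6.

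With p38i present during induction, the day 1 difference from DMSO was small. Of the 45 genes 4 were lower and none higher, against 12.6% and 3.47% of all genes, a share below that of all genes, and the median of -0.08 was near that of all genes (-0.09). Mcm5 was 54 and 68 against 77 and 75 in DMSO (-0.32 ± 0.09, adjusted p = 0.0204), Mcm4 57 and 61 against 71 and 72 (-0.27 ± 0.07, adjusted p = 0.0124), Rrm2 219 and 213 against 247 and 238 (-0.17 ± 0.05, adjusted p = 0.0298) and Rrm1 145 and 147 against 161 and 158 (-0.13 ± 0.04, adjusted p = 0.0459). The groups did not overlap in any of these 4, but all 4 calls were lost under quantile normalization, which called 1 gene as higher and none as lower, and in a fit of the 4 libraries alone. None was called without DMSO day 1 replicate 1, DMSO day 1 replicate 2 or p38i day 1 replicate 1, and 2 were called without p38i day 1 replicate 2. At an unadjusted p below 0.05, limma had 7 genes lower and 1 higher. Cdt1 (0.14), Gmnn (-0.11), Pcna (0.08), Tyms (-0.05), E2f1 (0.18) and Clspn (-0.21) did not pass.

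On day 3 with p38i, 11 genes were lower and none higher than in DMSO, against 16.2% and 5.22% of all genes, with a median of -0.17 against -0.08. Lig1, the ligase that joins Okazaki fragments, was 30 and 34 against 43 and 45 (-0.45 ± 0.07, adjusted p = 0.000158). Mcm7 was 44 and 49 against 62 and 65 (-0.44 ± 0.08, adjusted p = 0.000337) and Mcm5 40 and 35 against 50 and 51 (-0.42 ± 0.09, adjusted p = 0.00225). In all 3 the p38i libraries lay below both DMSO libraries. Timeless was lower by 0.44 (adjusted p = 0.0441), Dut by 0.35 and Rrm2 by 0.30 (adjusted p = 0.000197), and the others called were Mcm4, Mcm6, Rrm1, Rpa1 and Tipin (adjusted p = 0.0498). The calls of Timeless and Tipin, close to the threshold, were both lost under quantile normalization and with no filter on low values. Cdt1 (-0.04), Gmnn (0.04, adjusted p = 0.886), Pcna (-0.15, adjusted p = 0.103), Tyms (-0.25, adjusted p = 0.141), E2f1 (0.21) and Clspn (0.09) did not pass, nor did any polymerase or licensing gene. Under quantile normalization 2 genes were higher and 9 lower, 2 were also higher without p38i day 3 replicate 2, and a fit of the 4 libraries alone called 3 as lower.

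By day 5 the difference had spread to 31 genes, all lower with p38i, against 18.7% of all genes lower and 7.87% higher. The median was -0.49, against -0.08 for all genes. Gins1, of the GINS complex, was 5 and 7 against 12 and 15 in DMSO (-1.06 ± 0.20, adjusted p = 0.000469), Mcm5 40 and 36 against 70 and 63 (-0.79 ± 0.09, adjusted p = 2.63e-06) and Mcm10, which helps start the helicase, 10 and 9 against 16 and 17 (-0.74 ± 0.12, adjusted p = 0.000189). In these 3 helicase genes the p38i libraries lay below those of DMSO. Of the 12 helicase genes 9 were lower, and Cdc45 (-0.30), Gins2 (-0.24) and Gins4 (-0.04) did not pass. Lig1 was 33 and 32 against 53 and 58 (-0.75 ± 0.07, adjusted p = 3.13e-07) and Cdc6 5 and 5 against 9 and 9 (-0.74 ± 0.18, adjusted p = 0.00408). Rrm2 was 93 and 86 against 147 and 141 (-0.68 ± 0.05, adjusted p = 9.74e-09). All 5 nucleotide supply genes and all 3 fork protection genes were lower, and 4 of 5 licensing genes, among them Cdt1 (-0.58, adjusted p = 0.00252) and Gmnn (-0.53, adjusted p = 0.00253). Clspn (-0.62), Pcna (-0.38) and Tyms (-0.36, adjusted p = 0.031) were lower as well. E2f1 was at 0.13 (adjusted p = 0.346). A fit of the 4 libraries alone called 10.

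On day 7, 42 of the 45 genes were lower with p38i and none higher, against 17.6% and 16.5% of all genes, and the median was -0.75 while that of all genes was 0.00. Cdc45 was 6 and 9 with p38i against 22 and 22 in DMSO, a 2.75-fold lower level (-1.46 ± 0.15, adjusted p = 3.68e-07). Gins1 was 11 and 6 against 24 and 22, 2.62-fold lower (-1.39 ± 0.20, adjusted p = 1.83e-05), and Mcm5 46 and 41 against 106 and 100, 2.34-fold lower (-1.23 ± 0.09, adjusted p = 6.71e-09). The 3 parts of the active helicase (the Mcm ring, Cdc45 and GINS) were therefore all represented among the largest differences, GINS by Gins1 only. Gins3 (-0.495) and Gins4 (-0.464) were lower by less, and Gins2 (-0.39) did not pass. In all, 11 of the 12 helicase genes passed. Prim1 was 13 and 12 against 28 and 29 (-1.13 ± 0.15, adjusted p = 1.15e-05) and Mcm10 10 and 13 against 27 and 25 (-1.12 ± 0.12, adjusted p = 1.11e-06). Cdt1 was 17 and 14 against 37 and 32 (-1.11 ± 0.13, adjusted p = 2.34e-06), and its inhibitor Gmnn 36 and 36 against 74 and 76 (-1.04 ± 0.12, adjusted p = 1.79e-06). The RNA of the loading factor Cdt1 and that of its inhibitor were thus lower together, and RNA-seq does not measure their proteins.

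Nucleotide supply was lower in all 5 genes on day 7. Rrm2 was 96 and 94 with p38i against 194 and 187, 0.501 times the DMSO level (-0.996 ± 0.05, adjusted p = 4.15e-11). Tyms was 32 and 35 against 73 and 59 (-0.95 ± 0.12, adjusted p = 3.99e-06). Tk1, the salvage kinase for thymidine, was 39 and 40 against 75 and 74. Of the other roles all 8 polymerase and primase genes, all 5 licensing genes, all 4 lagging-strand genes, all 3 fork protection genes and both chromatin assembly genes were lower, with 4 of the 5 clamp genes. The licensing gene Cdc6 overlapped between the groups, at 5 to 8 against 8 to 12 (adjusted p = 0.0191). Its call was lost when only the groups compared were fitted. Pcna was 170 and 174 against 264 and 260 (-0.60 ± 0.06, adjusted p = 5.66e-07), and Clspn 9 and 7 against 13 and 13 (-0.65 ± 0.16, adjusted p = 0.00328). The 3 genes that did not pass were Gins2, Rfc3 and E2f1, the last at 26 and 24 against 23 and 25 (0.06, adjusted p = 0.681). In the sum of the 45 genes, p38i stood at 0.949, 0.861, 0.722 and 0.584 times the DMSO level over the 4 time points.

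**Figure D3:**
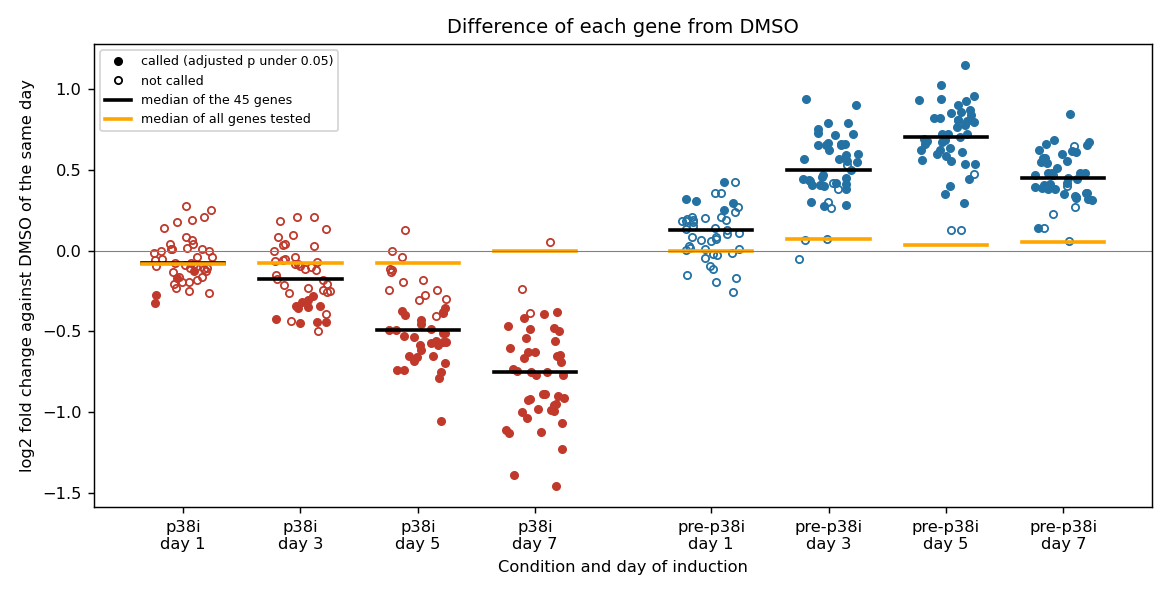
Log2 fold change of each of the 45 genes against DMSO of the same day, for p38i and for pre-p38i on days 1, 3, 5 and 7, on the log2(value + 1) scale. Filled points were called (adjusted p below 0.05), black bars mark the median of the 45 genes and orange bars the median of all genes tested; the median of the 45 went from -0.08 to -0.75 with p38i and stood at 0.13, 0.50, 0.71 and 0.45 in pre-p38i.

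When the same inhibitor was given before induction only, the differences from DMSO ran the other way. On day 1, 5 of the 45 genes were higher and none lower, against 5.4% and 6.24% of all genes, with a median of 0.13 against 0.00. Tk1 was 120 and 108 against 86 and 83 (0.43 ± 0.11, adjusted p = 0.0122), Mcm3 76 and 82 against 65 and 62 (0.31 ± 0.09, adjusted p = 0.0244) and Lig1 68 and 65 against 56 and 52 (0.30 ± 0.07, adjusted p = 0.0121), and Pold2 and Mcm6 were higher by 0.32 and 0.25. These differences were small, though without overlap, and the count was 3 without DMSO day 1 replicate 1, 0 without DMSO day 1 replicate 2, 2 without pre-p38i day 1 replicate 2 and 0 in a fit of the 4 libraries alone. At an unadjusted p below 0.05, 10 genes were higher and 1 lower. Mcm5 (0.21, adjusted p = 0.169), Cdt1 (0.14), Gmnn (0.18), Pcna (0.13), Rrm2 (-0.05), Tyms (0.18), E2f1 (-0.25, adjusted p = 0.0834) and Clspn (0.13) did not pass.

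On day 3, when the sum of the 45 genes was at its lowest in DMSO, 37 of the 45 were higher in pre-p38i and none lower, against 13.8% and 6.87% of all genes, and the median was 0.50 against 0.07. Timeless, of the fork protection complex, was 22 and 23 against 14 and 9 in DMSO (0.94 ± 0.15, adjusted p = 0.000216). Gmnn was 59 and 54 against 26 and 34 (0.90 ± 0.12, adjusted p = 2.6e-05), and Prim1 20 and 23 against 11 and 13 (0.79 ± 0.15, adjusted p = 0.000981). In these genes the pre-p38i libraries of day 3 lay far above those of DMSO, and in Timeless and Gmnn also above both untreated MEF libraries. Pole2 and Pold1 were higher by 0.79 and 0.75, and all 8 polymerase and primase genes passed, as did all 5 nucleotide supply and all 4 lagging-strand genes and 10 of 12 helicase genes. Rrm2 was 191 and 182 against 132 and 131 (0.50 ± 0.05, adjusted p = 1.05e-06) and Mcm5 77 and 74 against 50 and 51 (0.57 ± 0.09, adjusted p = 0.000191). Tyms (0.57), Clspn (0.47, adjusted p = 0.0408), Cdt1 (0.43, adjusted p = 0.0246) and Pcna (0.38) were higher too, and E2f1 (-0.05, adjusted p = 0.744) did not pass. A fit of the 4 libraries alone called 9.

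On day 5, 42 genes were higher in pre-p38i and none lower, against 14.3% and 11.3% of all genes, with a median of 0.71 against 0.04. Pole2 was 18 and 20 against 8 and 8 (1.15 ± 0.15, adjusted p = 1.24e-05), Cdc45 28 and 25 against 12 and 13 (1.03 ± 0.15, adjusted p = 3.55e-05) and Gins1 27 and 27 against 12 and 15 (0.96 ± 0.20, adjusted p = 0.00114). In all 3 genes pre-p38i on day 5 also exceeded the DMSO libraries of day 7. Prim1 was 30 and 37 against 19 and 15 and Tyms 85 and 91 against 47 and 44, both higher by 0.94. Rrm2 was 268 and 253 against 147 and 141 (0.85 ± 0.05, adjusted p = 3.7e-10) and Mcm5 115 and 119 against 70 and 63 (0.81 ± 0.09, adjusted p = 2.12e-06). Gmnn (0.82), Cdt1 (0.81), Clspn (0.72) and Pcna (0.61, adjusted p = 7.01e-07) were higher, and the 3 genes that did not pass were Gins2, Gins4 and E2f1. A fit of the 4 libraries alone called 27.

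On day 7 the count was 36 higher and none lower, against 15.4% and 14.5% of all genes, with a median of 0.45 against 0.05. Pole2 was 28 and 27 against 17 and 13 (0.84 ± 0.15, adjusted p = 0.000291), Clspn 22 and 21 against 13 and 13 (0.68 ± 0.16, adjusted p = 0.0025) and Cdt1 64 and 48 against 37 and 32 (0.67 ± 0.13, adjusted p = 0.000625). Gmnn was 108 and 131 against 74 and 76 (0.66 ± 0.12, adjusted p = 0.000322) and Timeless 38 and 42 against 26 and 24 (0.66 ± 0.15, adjusted p = 0.00291). All libraries of pre-p38i were above those of DMSO in these 5 genes. Mcm5 (0.58), Rrm2 (0.48, adjusted p = 5.06e-07), Tyms (0.45), E2f1 (0.38 ± 0.09, adjusted p = 0.00406) and Pcna (0.35) were higher as well, and here E2f1 passed, at 32 and 31 against 23 and 25. All 5 clamp, all 5 nucleotide supply and all 3 fork protection genes passed, but Cdc45 (30 and 27 against 22 and 22), Gins2, Gins3, Gins4, Orc1, Cdc6, Pola1, Rpa1 and Rpa2 did not. The sum of the 45 genes was 1.07, 1.4, 1.6 and 1.34 times that of DMSO over the 4 time points, and a fit of the 4 libraries alone called 20.

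**Figure D4:**
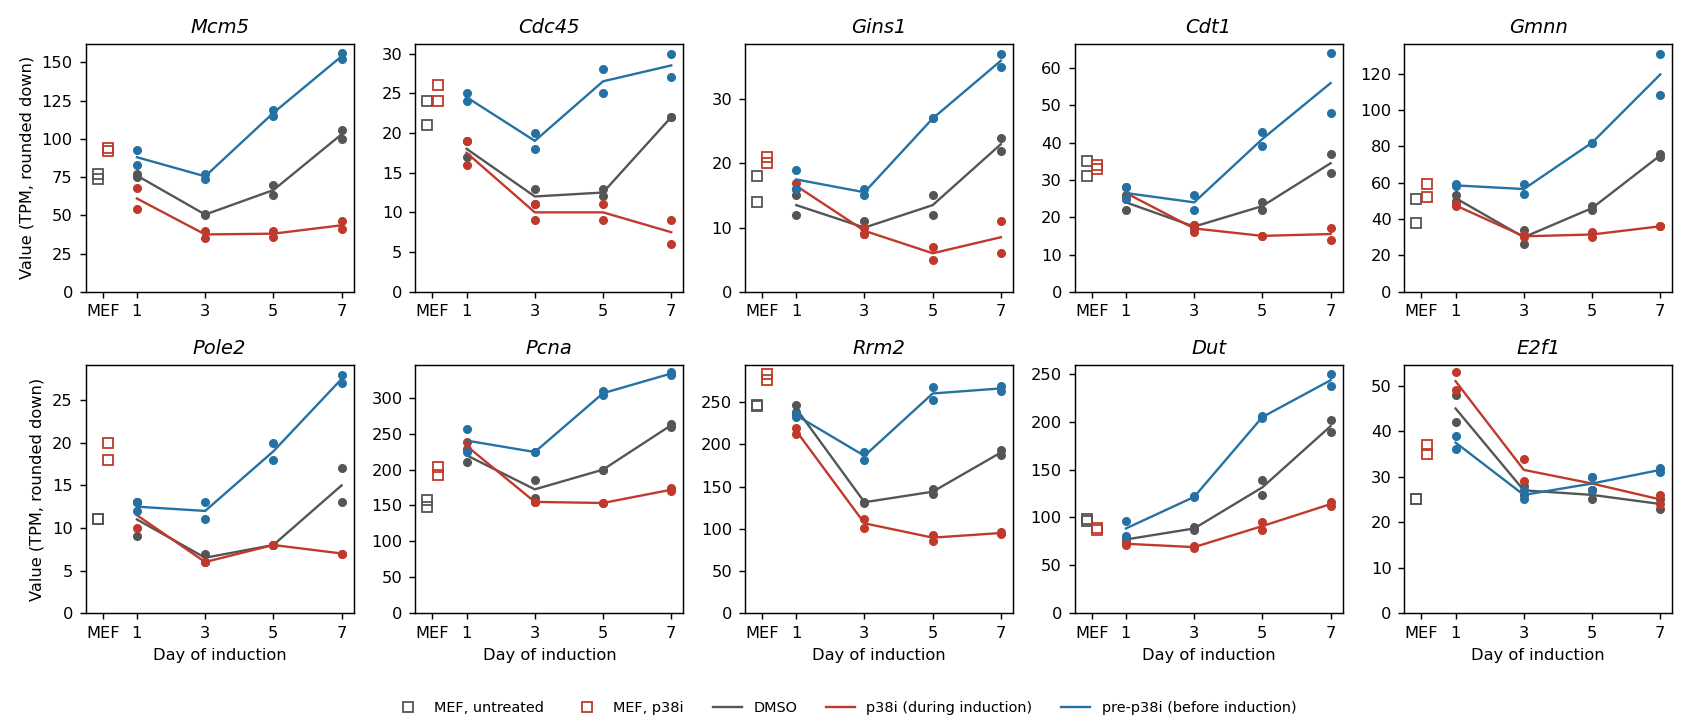
Value (TPM-like units) in each library against day of induction for Mcm5, Cdc45, Gins1, Cdt1, Gmnn, Pole2, Pcna, Rrm2, Dut and E2f1, with 1 panel a gene and lines through the means of DMSO, p38i and pre-p38i. In Mcm5 the day 7 libraries were at 46 and 41 with p38i, 106 and 100 in DMSO and 152 and 156 in pre-p38i, while E2f1 lay between 23 and 32 in all 6 libraries of that day.

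Because both schedules of the inhibitor share the DMSO libraries, they were also set against each other, in 4 comparisons added after values had been seen. On day 1, 11 genes were lower and 1 higher with p38i during induction than in pre-p38i, against 19.9% and 8.25% of all genes, with a median of -0.18 against -0.08. Mcm5 was 54 and 68 against 83 and 93 (-0.53, adjusted p = 0.000206), Tk1 73 and 85 against 120 and 108 (-0.53, adjusted p = 0.000845) and Lig1 46 and 48 against 68 and 65 (-0.49, adjusted p = 4.05e-05), all without overlap. Cdc45 (-0.47, adjusted p = 0.0231) and Mcm6 (-0.42) were lower and E2f1 higher (0.43, adjusted p = 0.00144), and Cdt1 (0.00), Gmnn (-0.29), Pcna (-0.04), Rrm2 (-0.12), Tyms (-0.23) and Clspn (-0.34) did not pass. The lower genes numbered 7 without p38i day 1 replicate 1 and 6 without pre-p38i day 1 replicate 2, the total was 4 in a fit of these libraries alone, and under quantile normalization the split was 2 higher and 8 lower. On day 3, 39 genes were lower and E2f1 alone higher (0.26, adjusted p = 0.0272, a call lost without p38i day 3 replicate 1 or pre-p38i day 3 replicate 1 and in a fit of these libraries alone), against 31.4% and 10.7% of all genes, with a median of -0.69 against -0.16. Timeless was 8 and 8 against 22 and 23 (-1.38, adjusted p = 6.07e-07), Pola1 8 and 8 against 18 and 19 (adjusted p = 7.6e-06), and Lig1, Mcm7, Mcm6, Mcm5 and Rrm2 were lower by 1.11, 1.10, 1.07, 0.99 and 0.80 on the log2 scale. Cdt1 (-0.47, adjusted p = 0.00688), Gmnn (-0.87), Tyms (-0.82) and Pcna (-0.53) were lower, and Clspn (-0.38, adjusted p = 0.0575) was not called.

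On day 5, 43 genes were lower with p38i during induction than in pre-p38i and none higher, against 31.1% and 16.3% of all genes, and the median was -1.25 against -0.12. Gins1 was 5 and 7 against 27 and 27 (-2.01 ± 0.20, adjusted p = 7.96e-08), Mcm10 10 and 9 against 36 and 29 (-1.67, adjusted p = 2.19e-09), and Rrm2 93 and 86 against 268 and 253 (-1.53, adjusted p = 1.95e-14). Mcm5 was lower by 1.60 and Prim1 by 1.59 on the log2 scale, Cdt1 was at -1.39, Gmnn at -1.35, Clspn at -1.34, Tyms at -1.29 and Pcna at -0.99, all called, and E2f1 was at 0.00 and, with Gins4, not called. On day 7 all 45 genes were lower and none higher, against 29.5% and 24.8% of all genes, with a median of -1.22 against -0.05. Gins1 was 11 and 6 against 35 and 37 (-2.01, adjusted p = 4.78e-08), Pole2 7 and 7 against 28 and 27 (-1.83, adjusted p = 5.02e-09), Cdc45 6 and 9 against 30 and 27 (-1.82, adjusted p = 4.04e-09), Mcm5 46 and 41 against 152 and 156 (-1.80, adjusted p = 4.36e-12) and Cdt1 17 and 14 against 64 and 48 (-1.78, adjusted p = 9.24e-10). The smallest difference was that of E2f1, at 26 and 24 against 32 and 31 (-0.32 ± 0.09, adjusted p = 0.00615). The other called values were Gmnn at -1.70, Rrm2 at -1.48, Tyms at -1.40, Clspn at -1.33 and Pcna at -0.95. Summed over the 45 genes, p38i stood at 0.884, 0.616, 0.452 and 0.436 times the pre-p38i level on days 1, 3, 5 and 7.

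Whether each effect changed between day 1 and day 7 was tested as a contrast of its own. The difference between p38i and DMSO was more negative on day 7 in 36 of the 45 genes and more positive in none, against 7.55% and 14.1% of all genes, with a median of -0.71 against 0.09. For Gins1 the libraries were 17 and 16 with p38i against 15 and 12 in DMSO on day 1, and 11 and 6 against 24 and 22 on day 7, a change of -1.67 ± 0.28 (adjusted p = 0.000256). Cdc45 (-1.42, adjusted p = 7.94e-05), Cdt1 (-1.25, adjusted p = 8.3e-05), Orc1 (-1.16, adjusted p = 0.0214) and Pole2 (-1.06, adjusted p = 0.0015) followed, with Gmnn at -0.92, Mcm5 and Tyms at -0.90, Rrm2 at -0.83 and Pcna at -0.69, all called. E2f1 and Clspn were among the 9 genes that were not. The difference between pre-p38i and DMSO was more positive on day 7 in 9 genes and more negative in none, against 7.25% and 9.43% of all genes, with a median of 0.34 against 0.05. These were Pole2, Timeless and Chaf1b (each 0.65), E2f1 (0.63, adjusted p = 0.00205), Mcm2 (0.56), Rrm2 (0.53, adjusted p = 2.87e-05), Mcm4, Mcm7 and Orc6, so that Mcm5, Cdt1, Gmnn, Pcna, Tyms and Clspn were not called. The calls of Mcm2, Mcm4, Rrm2, Chaf1b and E2f1 held under every alternative. Those of Pole2, Timeless, Mcm7 and Orc6 were lost when only the groups compared were fitted, and without most single libraries. The count was 5 without DMSO day 7 replicate 2.

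E2f1 and Dut departed from the common course, and both were singled out here after their values had been seen. E2f1 was listed at 25 and 25 in untreated MEFs, 48 and 42 on day 1 in DMSO, then 26 and 28, 25 and 27, and 23 and 25 on days 3, 5 and 7, so that it peaked on day 1 and showed no second rise. With p38i it was 49 and 53, 34 and 29, 30 and 27, and 26 and 24, and in pre-p38i 36 and 39, 25 and 27, 30 and 27, and 32 and 31. Its highest group mean was thus p38i on day 1 and its lowest DMSO on day 7, 2 groups in which no other member had its highest or its lowest mean. Dut was at 96 and 98 in untreated MEFs and at 75 and 79, 87 and 90, 139 and 124, and 189 and 202 over the 4 days in DMSO, a rise at every step after day 1 (0.20, 0.56 and 0.57, adjusted p = 0.0243, 1.02e-05 and 5.99e-06). With p38i it was 74 and 71, 70 and 68, 87 and 95, and 116 and 112, and in pre-p38i 81 and 96, 121 and 122, 206 and 204, and 237 and 250. Dut therefore showed no dip on day 3 in DMSO, yet was lower with p38i on day 7 (-0.77, adjusted p = 7.12e-08), as were the other nucleotide supply genes.

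Other genes of the same processes were counted on the same comparisons, in lists drawn up with earlier results of these data known. On day 7, 17.6% of all genes were lower and 16.5% higher with p38i, and 14.5% lower and 15.4% higher in pre-p38i. Of 33 further genes of the replication machinery, 23 were lower and 1 higher with p38i on day 7 (median -0.50), and 18 were higher and none lower in pre-p38i (median 0.40). Recql4, a helicase of replication initiation, was 1 and 1 with p38i against 5 and 3 in DMSO (-1.29, adjusted p = 0.000423). Pold4, the smallest subunit of polymerase delta, was the gene that was higher with p38i, at 36 and 31 against 19 and 23 (0.65, adjusted p = 9.36e-05). Of 18 further nucleotide supply genes 15 were lower and 2 higher with p38i on day 7, and 8 were higher and 2 lower in pre-p38i (median 0.14), among the latter Nme1, a nucleoside diphosphate kinase, at 72 and 87 against 109 and 98 in DMSO (-0.38, adjusted p = 0.0116). With p38i on day 7, Shmt1, a serine hydroxymethyltransferase of the folate cycle that serves thymidylate synthesis, was 12 and 9 against 28 and 26 in DMSO (-1.30, adjusted p = 4.64e-07). Rrm2b, the ribonucleotide reductase subunit induced by p53, was higher with p38i, at 11 and 14 against 8 and 8 (0.58, adjusted p = 0.00923). Of 12 E2F, DP and pocket protein genes, 4 were lower and 1 higher with p38i on day 7. Rbl1 (p107) was 10 and 10 against 16 and 17 (-0.67, adjusted p = 0.000839) and Rbl2 (p130), the pocket protein of resting cells, 15 and 16 against 9 and 11 (0.59, adjusted p = 0.00339). Rbl1 was 29 and 25 in pre-p38i (0.68, adjusted p = 0.000955), 1 of 3 genes of that list that were higher there, with none lower. E2f2, in low whole numbers, was listed on day 7 at 12 and 13 in pre-p38i, 5 and 7 in DMSO and 4 and 4 with p38i.

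Mitosis genes moved with the replication genes. Of 20 listed, 10, 12, 20 and 20 were lower with p38i than in DMSO on days 1, 3, 5 and 7 and none higher, with medians of -0.30, -0.29, -0.57 and -0.97. In pre-p38i none was called on day 1 and all 20 were higher on days 3, 5 and 7. Plk1, the polo-like kinase of mitosis, was 38 and 35 with p38i on day 7, 83 and 84 in DMSO and 129 and 133 in pre-p38i. The sum of the mitosis list was 0.808 and 0.505 times DMSO with p38i on days 1 and 7, so that on day 1 the mitosis genes were lower by more than the replication genes (0.949); that difference between lists was not tested.

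Markers of other cells also moved with the groups. The fibroblast markers Col1a1, Vim and Fn1 were high in untreated MEFs (Col1a1 at 4164 and 3867), while Dcn was at 7 and 7 and Lum at 0 there, and the sum of 12 fibroblast markers was 17616 to 18319 in untreated MEFs, 13597 to 13769 in p38i-treated MEFs, 3946 to 4155 in DMSO on day 7, 5199 to 5244 with p38i and 2774 to 2913 in pre-p38i. The sum of 14 macrophage markers was 329 to 339 in untreated and 235 in p38i-treated MEFs, 292 to 643 over the DMSO libraries, 209 to 323 with p38i and 107 to 246 in pre-p38i. These markers did not all move alike. Between untreated MEFs and DMSO on day 5, Laptm5 went from 15 and 13 to 131 and 142. Csf1r went from 15 and 13 to 4 and 3. On day 7, 6 of the 13 macrophage markers tested were lower and 1 higher with p38i, against 17.6% and 16.5% of all genes. All 13 were lower in pre-p38i, against 14.5% of all genes. Among these, Laptm5 was 68 and 73 in pre-p38i against 151 and 157 in DMSO. Cd68 was 27 and 22 against 36 and 33, and Adgre1 1 and 1 against 8 and 9. Some were near the floor of these whole numbers, with Csf1r at 0 and 0 against 1 and 1 and Mrc1 at 1 and 1 against 2 and 2. Fcgr1, which was too low to be tested, was at 0 in both groups. Mitochondrial transcripts made up 1.95% to 6.18% of a library, 4.88% to 6.18% with p38i on days 3 to 7, 3.62% to 4.02% in DMSO on day 7 and 3.04% to 3.21% in pre-p38i on day 7. The part of these differences in the replication results was not tested.

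Positions of the genes followed throughout, in GRCm38 and all protein coding, are chr8:75109569-75128439 for Mcm5, chr8:122568015-122573554 for Cdt1, chr13:24751845-24761923 for Gmnn, chr2:132249162-132253314 for Pcna, chr12:24708241-24714146 for Rrm2, chr5:30058202-30073617 for Tyms, chr4:126556935-126593903 for Clspn and chr2:154559407-154569892 for E2f1. Of the 45 genes, 42 stand in the table where GENCODE M21 has them. Counting could be uncertain for some. Pcna has a near-identical processed copy, Pcna-ps2 (99.2% over 781 bases), which was listed at up to 44, and stretches of Tyms and Rfc5 are shared with other listed genes. Exons of 14 members overlap a gene on the opposite strand, most in Fen1 (78.8% of exon bases, with Gm10143), Gins2 (67.3%, with Gse1) and Chaf1a (52.5%, with Ubxn6), and whether reads were counted by strand is not given in the sources used here, so reads of such pairs cannot be told apart. Gins2 was called in none of the 8 comparisons of p38i or pre-p38i with DMSO. Fen1 and Chaf1a were called on day 7, as lower with p38i and as higher in pre-p38i. The part of the overlaps in these calls was not tested.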

How the data were processed

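Bulk RNA-seq of 28 libraries was analysed, 2 for each of 14 groups taken from the sample labels. That the induced ctr groups received DMSO comes from the study's results text and figure legend. Whether the control MEFs, called untreated here, received DMSO is not stated. Each deposited value is a whole-number score, which the authors made. As library totals run from 991287 to 992537, just short of what TPM add up to, these scores were taken to be TPM without their decimals, already normalized for depth and gene length. Sequencing depth is unknown, and no counting interval was computed. The submitters' processing notes list bcl2fastq, Bowtie2 2.2.5, RSEM 1.3.0, hg38 and mm10, without roles, and the differential test is not given in the sources used here. Labels and methods do not describe the MEF medium, the extraction of RNA or the library kit alike.

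Log2(value + 1) was fitted with limma 3.58.1 (R 4.3.3, lmFit, contrasts and eBayes with a trend), as planned for normalized values. The 13230 genes whose mean reached 1 entered 1 model of all 14 groups without a block. Benjamini-Hochberg adjustment ran over all genes tested, and calls were made at an adjusted p under 0.05. Fold changes are on the value + 1 scale, which understates those of low genes. An exact permutation test of 2 against 2 libraries cannot go below 0.333, so none was run. The scripts were tested on simulated data. Copies of at least 95% identity over 200 bases were found with BLAST 2.17.0+, and plots were drawn with matplotlib 3.10.9.

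The members and all gene lists were chosen with earlier results of these data known. Named in every comparison were Mcm5, Cdt1, Gmnn, Pcna, Rrm2, Tyms, E2f1 and Clspn, with up to 5 called members of largest rise and 5 of largest fall, where 1 group's mean reached 5 and the groups did not overlap. From the other lists, called genes of largest change were named. Alternatives were another pseudocount (0.1), another minimum mean (5) or none, quantile normalization, fits of only the groups compared, a replicate block and leaving out each library. Comparisons of p38i with pre-p38i were added after values had been seen.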

Additional observations from a re-analysis of the deposited data

Results flagged for a closer look

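The difference between p38i and DMSO was not the same on day 7 as on day 1, by limma's test of that change itself. It passed in 36 of the 45 genes, all more negative on day 7, among them Gins1 (-1.67), Cdc45 (-1.42), Cdt1 (-1.25), Orc1 (-1.16), Pole2 (-1.06), Gmnn (-0.92), Mcm5 (-0.90), Tyms (-0.90), Rrm2 (-0.83) and Pcna (-0.69), on the log2 scale. For the difference between pre-p38i and DMSO the same test passed in 9 genes, all more positive on day 7, among them Pole2, Timeless and Chaf1b (0.65 each), E2f1 (0.63), Mcm2 (0.56) and Rrm2 (0.53). Of these 9, Pole2, Timeless, Mcm7 and Orc6 lost the call when only the groups compared were fitted, and without most single libraries. Groups of 2 libraries are too small to be searched for an outlying library.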

How the results depend on the processing

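Counts of called genes moved most when only the groups compared were fitted, which leaves 2 residual degrees of freedom: 6 for p38i-treated against untreated MEFs, 0, 3 and 10 for p38i against DMSO on days 1, 3 and 5, 0, 9, 27 and 20 for pre-p38i against DMSO on days 1, 3, 5 and 7, 6, 20, 0 and 15 for the successive steps from MEFs to DMSO day 7, and 4 for p38i against pre-p38i on day 1. Under quantile normalization the 4 calls for p38i on day 1 were lost and 1 other gene was called, as higher. Leaving out each library gave 11 to 13 in MEFs, 0 to 2 for p38i on day 1, 0 to 4 for pre-p38i on day 1, 12 to 22 for DMSO day 5 against day 3, 7 to 11 for p38i against pre-p38i on day 1 and 5 to 9 for the change of the pre-p38i difference. The total called in each of the other cases stayed within 1.5 times, but its split by direction moved further under quantile normalization for DMSO day 1 against MEFs (4 higher and 13 lower), p38i on day 3 (2 and 9) and p38i against pre-p38i on day 1 (2 and 8). In a fit with the replicate number as a block the counts were 17 in MEFs, 5, 10, 31 and 42 for p38i and 5, 38, 42 and 37 for pre-p38i, and no total moved by over 1.5 times. Replicate deviations correlated between -0.0838 and 0.0874 over 91 pairs of groups. By this measure libraries of the same replicate number showed no common deviation, and whether they share a culture or batch is not stated.

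Of 227 named values 173 were called, and 81 of these lost the call under at least 1 alternative, 80 of them when only the groups compared were fitted. No called value changed sign. Uncalled values that did were, under quantile normalization, Cdt1 with p38i on day 3 (0.0912) and Mcm5 (-0.0909) and Tyms (-0.0348) on DMSO day 1 against MEFs. With each library left out, Cdt1 ranged from -0.0616 to 0.11 and Tyms from -0.0474 to 0.0824 in MEFs. With p38i, Tyms ranged from -0.14 to 0.0402 on day 1, Cdt1 from -0.12 to 0.039, Gmnn from -0.15 to 0.22 and Clspn from -0.14 to 0.31 on day 3, and E2f1 from -0.0011 to 0.11 on day 7. E2f1 ranged from -0.11 to 9e-04 in pre-p38i on day 3 and in DMSO day 5 against day 3, where Tyms ranged from -0.24 to 0.0148. On DMSO day 1 against MEFs Mcm5 ranged from -0.0187 to 0.0378, Rrm2 from -0.0504 to 0.0029 and Tyms from -0.0148 to 0.13, and against pre-p38i on day 1 Pcna ranged from -0.14 to 0.0561. The deposited whole numbers limit genes near 1 to 10, such as Orc1, and depth is unknown.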
